A study of Mus musculus
Rattus norvegicus and Mus musculus and Rattus norvegicus with 95 samples.

Results

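Keratins form the intermediate filaments of epithelial cells. The genes examined are the 38 whose symbol is Krt followed by a number alone, out of 13926 homologues measured in both tables of the series. Members were found by symbol, and the rule uses no measured value. A keratin filament is built from pairs of an acidic type I and a basic type II chain. Simple epithelia and the first epithelia of the embryo use a small set of simple keratins, whereas stratified epithelia switch between basal, suprabasal and stress-associated pairs, and hair uses a set of its own. Of the 38 members, 24 were type I and 14 type II. The lists held 2 simple epithelial keratins (Krt19 and Krt20), 16 of stratified epithelia and epidermis and 19 of hair and root sheath, and Krt42 was in no list. Krt5, Krt7, Krt8 and Krt18 were not analysed here, so statements on keratins here cover the 38 genes only, and the usual type II partner of a type I chain could often not be followed.

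The series profiled embryonic stem cells (ESCs) of mouse (lines F145 and F146), of rat (DA25 and DA53) and allodiploid ESCs (AdESCs), whose cells carry a mouse and a rat genome together (RM1-1, RM2-1, MR1-1 and MR2-1), with 1 bulk library for each line, all labelled as G0/G1 cells. Single cells, labelled C1 (the name of a microfluidic capture system), numbered 87 in 11 samples, 24 AdESCs in 4 samples and 63 differentiated cells in 7. The differentiated samples were embryoid bodies (EBs) of MR2-1 (12 cells) and RM1-1 (5 cells), fibroblasts from a mouse chimaera of MR1-1 (10 cells), neurons (8 cells) and testis somatic cells (4 cells) from a mouse chimaera of RM1-1, and lung (4 cells) and testis somatic cells (20 cells) from a rat chimaera of RM2-1. No treatment or transgene is named, each single-cell sample stands for 1 line, and the labels do not say how many animals were used, how cells derived from AdESCs were told from host cells, or whether libraries came from separate cultures. P-values therefore measure only the spread between these samples. Values are FPKM, a level in sequenced fragments scaled by transcript length and by the mapped fragments of the library.

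Bulk libraries were of similar scale, while single cells varied more and had fewer genes detected. Summed FPKM ran from 312695 to 377664 in bulk and from 213045 to 411555 in single cells, and genes at 1 FPKM or more numbered 7835 to 8770 in bulk libraries and 3444 to 6246 in cells. Read depth is unknown, so a cell at 0 FPKM may hold transcripts that were not captured. In bulk samples, fewer cells of a type and less RNA per cell cannot be told apart. Markers did not bear out every label. In the lung sample 0 of 8 lung epithelial markers reached 10 FPKM in any cell, Sftpc, Scgb1a1 and Aqp5 among those at 0, while 6 of 6 smooth muscle markers did. In the fibroblast sample 6 of 10 cells had 3 or more of 12 fibroblast markers at 10 FPKM, and in the neuron sample 2 of 8 cells had 3 or more of 6 neuron markers. In each testis sample 1 of 6 Sertoli markers reached 10 FPKM in a cell, while Amh, Fshr, Cldn11 and Inha were at 0 in all cells. The summed Sertoli level per cell was 5.86 to 1926 FPKM in RM2-1 and 102 to 722 FPKM in RM1-1 testis cells. Of the RM2-1 testis cells 20 of 20 had 3 or more of 6 smooth muscle markers at 10 FPKM, against 0 of 4 RM1-1 testis cells. All these samples are therefore named by their labels only.

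All 24 type I genes lie on mouse chromosome 11 and all 14 type II genes on chromosome 15 in GENCODE M21 (assembly GRCm38). Neighbours of the type I cluster are close copies. The coding stretches shown next are the 60 bases at which Krt17 is most like the type I keratins Krt14, Krt16, Krt42 and Krt19. They show how little may separate reads of these genes. Each lies in exon 3 on the minus strand, and capitals mark bases that differ from Krt17.
Krt17: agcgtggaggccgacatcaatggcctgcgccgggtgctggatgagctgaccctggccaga
Krt14: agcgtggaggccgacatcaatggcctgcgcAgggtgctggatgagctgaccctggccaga
Krt42: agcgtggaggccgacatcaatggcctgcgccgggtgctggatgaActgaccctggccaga
Krt19: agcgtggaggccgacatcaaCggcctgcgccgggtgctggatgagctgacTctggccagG
Krt16: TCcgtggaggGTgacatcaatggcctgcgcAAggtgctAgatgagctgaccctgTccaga
They are chr11:100259242-100259301 in Krt17, chr11:100205017-100205076 in Krt14, chr11:100267004-100267063 in Krt42, chr11:100142121-100142180 in Krt19 and chr11:100247631-100247690 in Krt16. Krt14 and Krt42 differ from Krt17 there by 1 base each, Krt19 by 3 and Krt16 by 8. Over whole coding sequences, however, most members are distinct: 15 of 38 share any exact 50-base window with another member. The shared part was 16.8% of windows for Krt14, 13.8% for Krt16 and 4.8% for Krt17, 0.306% for Krt42 and 0 for Krt19, Krt4, Krt13 and Krt23. It was 55% for Krt86 (with Krt81) and 27.9% for Krt31 (with Krt34). Values of Krt86, Krt31, Krt14 and Krt16 are therefore less certain than those of Krt19, because the counting could have split reads between copies.

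In the bulk stem cells most keratins were silent or nearly so. Of the 38 genes, 31 stayed under 1 FPKM in every library, and Krt19, Krt17 and Krt42 reached 10 FPKM in at least 1. The others at 1 FPKM or more were Krt10 (highest value 1.18 FPKM), Krt13 (1.43 FPKM), Krt16 (2.00 FPKM) and Krt36 (1.23 FPKM). No type II keratin was among them. Only Krt19, Krt17 and Krt42 passed the filter of a mean of 1 FPKM over the 8 libraries and were tested.

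Krt19, the smallest type I keratin and one that lacks the usual tail domain, had the highest level of the 38 members in the rat and AdESC libraries. The mouse lines had 4.54 FPKM (F145) and 13.1 FPKM (F146), and the rat lines 71.4 FPKM (DA25) and 102 FPKM (DA53). The AdESC lines held 110.1 FPKM (MR1-1), 43.3 FPKM (MR2-1), 38.1 FPKM (RM1-1) and 13.2 FPKM (RM2-1). Mouse and rat did not overlap, and the AdESC lines spanned the space between them, from the upper mouse line to just above the upper rat line. Krt19 was higher in rat than in mouse ESCs by 3.28 ± 0.77 on the log2(FPKM + 1) scale (SE, n = 2 and 2; limma adjusted p = 0.0118), in a comparison that called 26.6% of all genes tested. This call rests on few libraries: without F145 the difference was 2.61 (limma adjusted p = 0.0857), and without DA53 it was 3.03 (limma adjusted p = 0.0781). The AdESC mean of 51.2 ± 41.4 FPKM (SD, n = 4) was above the mouse mean by 2.20 ± 0.67 on the log2 scale, which did not pass the test (limma adjusted p = 0.104), but did without RM2-1 (2.71, limma adjusted p = 0.0304). AdESC against rat gave -1.08 ± 0.67 (limma adjusted p = 0.339).

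Krt42, a type I keratin whose gene neighbours Krt17, had the opposite order in the parental species. Its level was 5.45 FPKM in F145 and 14.3 FPKM in F146, but 0 in DA25 and 0.0245 FPKM in DA53. AdESC lines held 2.96 FPKM (MR1-1), 1.18 FPKM (MR2-1), 2.08 FPKM (RM1-1) and 0.315 FPKM (RM2-1), below both mouse lines and above both rat lines without overlap. The rat level differed from mouse by -3.29 ± 0.57 on the log2(FPKM + 1) scale (limma adjusted p = 0.00239), where 26.6% of all genes tested were called. Krt42 passed the filter on low values largely through the mouse lines, with a mean of 9.86 FPKM beside 1.64 FPKM in AdESCs and 0.0123 FPKM in rat. A rat value at or near 0 can also mean that the rat annotation counted no reads for the gene, which the tables do not separate from missing transcripts. AdESC against mouse gave -2.03 ± 0.49 (limma adjusted p = 0.0503) and AdESC against rat 1.27 ± 0.49 (limma adjusted p = 0.136), so neither difference passed. The first crossed the threshold with upper-quartile scaling (-2.04, limma adjusted p = 0.0458) and without MR1-1 (-2.26, limma adjusted p = 0.0408), and the second with a pseudocount of 0.1 FPKM in place of 1 (3.62, limma adjusted p = 0.0168).

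Krt17, a keratin of basal and stressed epithelia that is also found in embryonic epithelium, was lower and more variable. It was 0.718 FPKM in F145, 3.14 FPKM in F146, 0.0369 FPKM in DA25 and 0.0902 FPKM in DA53. In AdESCs it was 13.0 FPKM in MR1-1, 3.29 FPKM in MR2-1, 4.34 FPKM in RM1-1 and 0.741 FPKM in RM2-1. All 4 AdESC lines were above both rat lines, and the RM2-1 value was at the level of F145. The difference from rat was 2.19 ± 0.69 on the log2(FPKM + 1) scale (limma adjusted p = 0.0773). It passed with a pseudocount of 0.1 FPKM (4.48, limma adjusted p = 0.0144) and without RM2-1 (2.69, limma adjusted p = 0.0228). Krt17 itself passed the filter on low values only through the AdESC lines, which limits what these tests show. Rat against mouse gave -1.33 ± 0.80 (limma adjusted p = 0.246), and -3.33 with the pseudocount of 0.1 FPKM (limma adjusted p = 0.049). RM2-1 had the lowest level of all 3 keratins among the AdESC lines, and MR1-1 the highest.

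**Figure D1:**
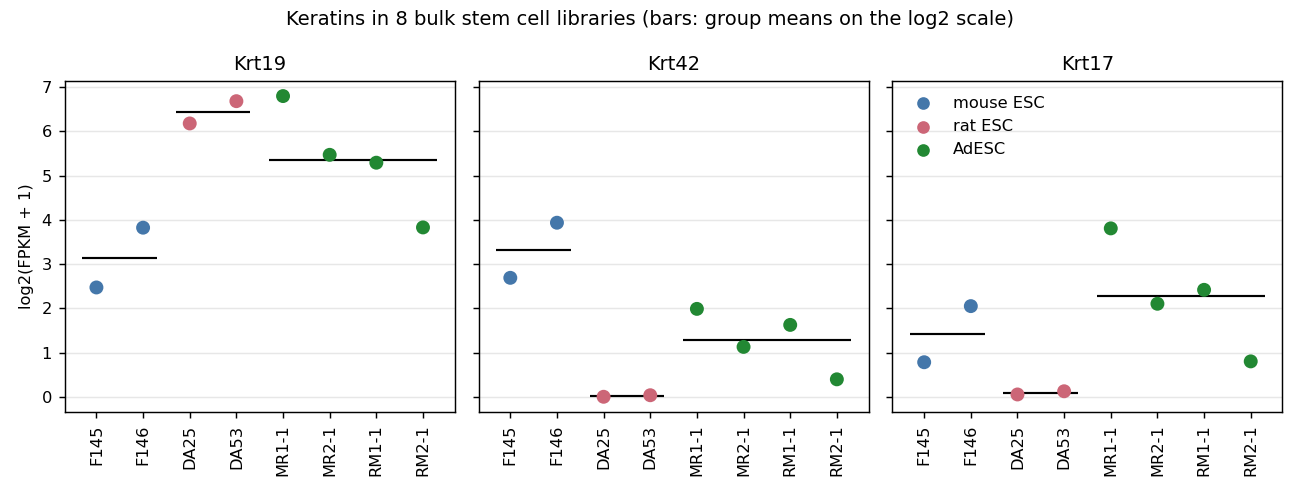
Levels of Krt19, Krt42 and Krt17 in each of the 8 bulk libraries as log2(FPKM + 1), with a bar at each group's mean on that scale. Rat lines are above mouse lines for Krt19 (71.4 and 102 against 4.54 and 13.1 FPKM) and near 0 for Krt42, and in every panel RM2-1 is the lowest of the 4 AdESC lines.

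In bulk AdESCs, then, 0 of the 3 keratins tested passed against mouse and 0 of 3 against rat, where 3.89% and 9.7% of all genes tested were called. Between rat and mouse 2 of 3 passed, beside 26.6% of all genes tested. Each group enters 2 of these 3 comparisons, so they share samples. Levels of feeder and fibroblast genes also varied between the libraries, with a summed FPKM over 12 such markers of 3114 in F145, 609 in F146, 403 in DA25 and 729 in DA53, and from 497 to 748 in the AdESC lines. At 10 FPKM or more were 10 of the 12 in F145, 8 in F146, 3 in each rat line and 3 to 8 in the AdESC lines, and Col1a2, Col3a1 and Dcn averaged 0 in rat. Their part in the keratin values was not tested.

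The proteins that bind and anchor keratins were measured alongside. Of 14 genes of desmosomes and keratin anchorage in the tables, 9 were tested in bulk. The shares of all genes called were 3.89% between AdESC and mouse, 9.7% between AdESC and rat and 26.6% between rat and mouse. None of the 9 was called between AdESC and mouse. Against rat, 3 were higher in AdESCs, namely Jup (plakoglobin, which links desmosomal cadherins to the filaments; 32.4 against 11.6 FPKM), Pkp2 (plakophilin 2; 5.94 against 0.244 FPKM) and the integrin chain Itga6 (21.4 against 8.34 FPKM), and the desmosomal cadherin Dsc2 was lower (1.02 against 5.28 FPKM). Between rat and mouse, which shares the rat libraries, Dsc2 was called higher in rat, and Jup, Pkp2 and Itga6 lower. Of 16 genes of the epithelial surface, all tested, 3 were higher in AdESCs than in mouse ESCs: Epcam, an adhesion molecule of embryonic and adult epithelia, at 203 against 31.1 FPKM, the tight junction gene Cldn6 at 28.6 against 3.94 FPKM and the protease inhibitor Spint2 at 89.3 against 40.3 FPKM. Their list had a median log2 difference of 0.70 beside -0.01 over all genes tested, of which 3.89% were called. Rat ESCs had Epcam at 182 FPKM, Cldn6 at 22 FPKM and Spint2 at 105 FPKM, and all 3 were called higher there than in mouse. Against rat, none of the 16 was higher in AdESCs and 1 was lower, beside 9.7% of all genes called. The lower gene was the splicing factor Esrp2 (4.14 against 23.8 FPKM). The list's median against rat was -0.03 beside -0.11 over all genes tested. Vim, which encodes the intermediate filament of mesenchymal cells, was 61.5 FPKM in AdESCs and 0.456 FPKM in rat ESCs. The difference was 5.27 ± 0.69 on the log2 scale (limma adjusted p = 0.0011). Mouse ESCs held Vim at 315 ± 336 FPKM (SD, n = 2), and AdESC against mouse was not called (limma adjusted p = 0.166). The AdESC single-cell samples averaged only 7.36 FPKM of Vim.

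The single AdESCs carried Krt19 in nearly every cell. It was at 10 FPKM or more in 21 of 24 cells, which is also the number of cells with any keratin at that level (87.5%, exact Clopper-Pearson 95% interval 67.6% to 97.3%, which like the others here covers the counting of cells only). By line the Krt19-positive cells were 5 of 6 in MR1-1, 6 of 8 in MR2-1, 4 of 4 in RM1-1 and 6 of 6 in RM2-1. The cell means were 32.1 FPKM (MR1-1), 23.6 FPKM (MR2-1), 54.5 FPKM (RM1-1) and 104 FPKM (RM2-1). Among the AdESC lines, RM2-1 was thus highest in single cells and lowest in bulk, where it had 13.2 FPKM, and MR1-1 had 110.1 FPKM in bulk. The mean of RM2-1 includes 1 cell at 271 FPKM, and its lowest cell had 45.3 FPKM. The 1 AdESC with Krt19 at 0, of MR1-1, also had the other named keratins at 0 and Epcam at 6.79 FPKM, below the 32.5 to 122 FPKM of the other 5 cells of its sample.

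Other keratins appeared in AdESCs in single cells at a time. A second keratin reached 10 FPKM in 11 of 24 cells. Krt35, a keratin of the hair cortex and cuticle, did so in 4 cells, with cell means of 10.9 FPKM (RM1-1), 4.52 FPKM (MR1-1), 3.15 FPKM (MR2-1) and 0.05 FPKM (RM2-1). Bulk libraries of these lines held only 0.104 to 0.54 FPKM of Krt35. Krt42 reached 10 FPKM in 3 cells, 1 each of MR1-1 (50.1 FPKM), MR2-1 (26.9 FPKM) and RM1-1 (13.3 FPKM). Krt17 did so in 1 cell each of MR1-1 (10.3 FPKM), MR2-1 (38.4 FPKM) and RM2-1 (38.8 FPKM). Krt13, Krt23 and Krt86 were at 10.6, 15.1 and 36.4 FPKM in 1 MR2-1 cell each, and Krt31 at 25.7 FPKM in 1 RM1-1 cell. Krt86, a hair keratin, was the only type II keratin at 10 FPKM in an AdESC. The hair keratins Krt31, Krt35 and Krt86 and Krt42 were not at 10 FPKM in any of the 63 differentiated cells, in all of which they were listed at 0.

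Krt35 and Krt42 were the 2 keratins called between differentiated and AdESC samples, out of 9 tested, and 15.9% of all genes tested were called there. Each sample entered as the mean FPKM of its cells. The difference was -2.04 ± 0.56 on the log2(FPKM + 1) scale for Krt35 (limma adjusted p = 0.022) and -1.96 ± 0.54 for Krt42 (limma adjusted p = 0.0229), with n = 7 and 4 samples. Both passed the filter on low values only through the AdESC samples, and a fold cannot be given against values of 0. Both calls were lost without the MR2-1 AdESC sample (limma adjusted p = 0.0584 for Krt35 and 0.0773 for Krt42). Without the MR1-1 AdESC sample Krt35 was not called (limma adjusted p = 0.0725), and without the RM1-1 AdESC sample Krt42 was not (limma adjusted p = 0.066), while the second gene then fell below the filter each time. The other 7 tested were Krt4, Krt14, Krt15, Krt16, Krt17, Krt19 and Krt23. Of these, Krt4, Krt14, Krt15 and Krt16 were 0 in all AdESC cells.

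**Figure D2:**
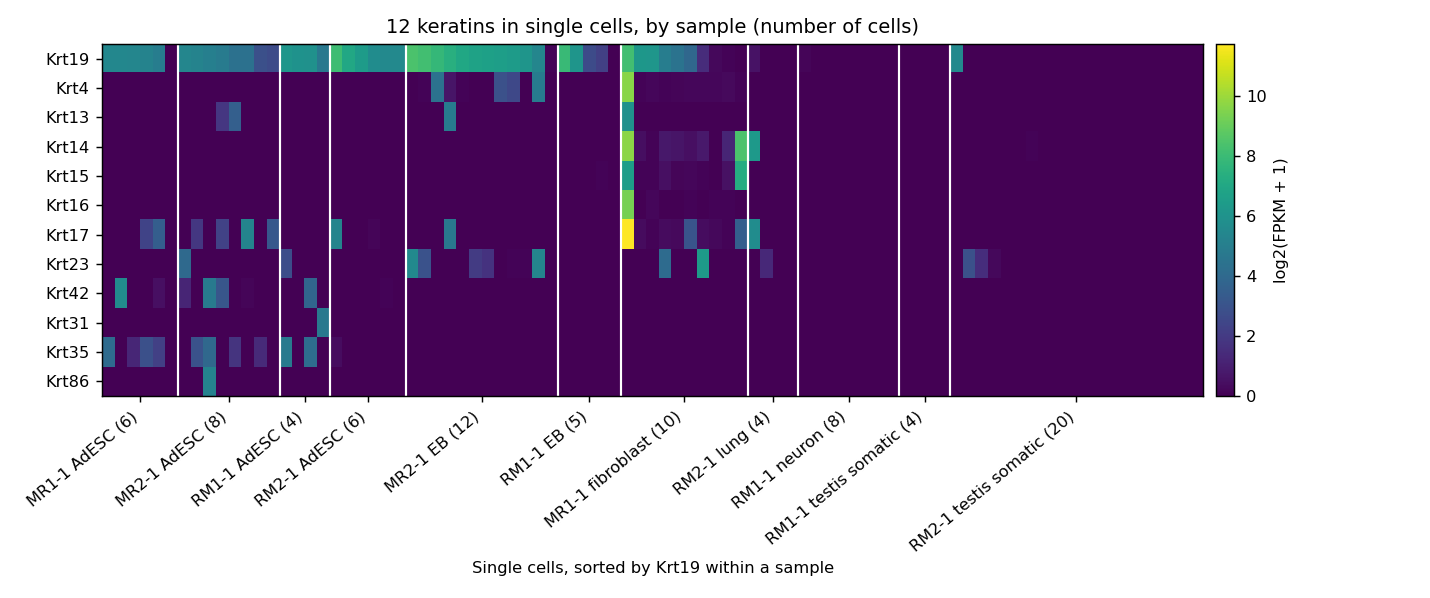
The 12 keratins at 10 FPKM or more in a library or cell, as log2(FPKM + 1) in each of the 87 single cells, grouped by sample and sorted by Krt19 within a sample. Krt19 fills most AdESC and MR2-1 EB columns, 1 column of the fibroblast sample is bright for 7 keratins, and the testis and neuron samples are almost empty.

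Keratin-positive cells, defined as cells with any member at 10 FPKM or more, numbered 23 of the 63 differentiated cells (36.5%, 95% interval 24.7% to 49.6%), and 20 of these had Krt19. They were 11 of 12 in the MR2-1 EB sample (91.7%, 61.5% to 99.8%), 8 of 10 in the fibroblast sample (80%, 44.4% to 97.5%) and 2 of 5 in the RM1-1 EB sample (40%, 5.27% to 85.3%). There was 1 of 4 in the lung sample (25%, 0.631% to 80.6%) and 1 of 20 among RM2-1 testis cells (5%, 0.127% to 24.9%). No cell was positive among the 8 neurons or the 4 RM1-1 testis cells. The upper limits of their 95% intervals were 36.9% and 60.2%, and the limit set by 3 cells of the total was 37.5% and 75%. The values nearest the threshold were 8.51 FPKM for Krt17 (MR2-1 AdESC) and 8.52 FPKM for Krt34 (MR1-1 AdESC) below it, and 10.3 FPKM for Krt17 (MR1-1 AdESC) and 10.6 FPKM for Krt13 (MR2-1 AdESC) above it.

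EBs are aggregates in which ESCs begin to differentiate, and an outer layer of extraembryonic endoderm often forms. Krt19 in the MR2-1 EB cells ran from 0.0909 to 339 FPKM with a median of 104 FPKM, and 11 of 12 cells had at least 40.7 FPKM. The 11 cells also carried the endoderm transcription factors Gata4 in 10 cells and Gata6 in 10, Foxa2 in 6 and Sox17 in 3, and Epcam in 10, each at 10 FPKM or more. Over the visceral endoderm list, 7 of 12 markers reached 10 FPKM in the sample and 7 cells had 3 or more, with a summed level of 13.6 to 407 FPKM per cell, while Apoa4 and Apob were at 0. The single cell without Krt19 differed from the rest: it had Vim at 1549 FPKM and Col1a1 at 470 FPKM, with Epcam and Gata4 at 0, Gata6 at 10.3 FPKM, Sox17 at 3.13 FPKM and Jup at 27.4 FPKM. Another keratin was found in 4 of the Krt19 cells: Krt23 at 47.1 and 39.3 FPKM in 2 cells, Krt4, a type II keratin of the oesophagus and other mucosae, at 29.7 and 20.3 FPKM in 2, and Krt13, the usual partner of Krt4, with Krt17 at 29.7 and 25 FPKM in 1. Krt13 and Krt4 were not high in the same EB cell, since the cell with Krt13 had Krt4 at 0.61 FPKM.

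In the 5 RM1-1 EB cells the Krt19 values were 244, 69.3, 5.34, 3.65 and 0 FPKM, and no other keratin reached 10 FPKM. Both positive cells had Epcam and Cdh1 at 0 and Vim at 969 and 1063 FPKM, while the cell with Krt19 at 5.34 FPKM had Epcam at 30.7 FPKM. All 5 cells had Vim at 202 FPKM or more, whereas in the 11 positive MR2-1 EB cells it ran up to 200.5 FPKM. Visceral endoderm markers reached 10 FPKM for 1 of 12 genes in this sample. In the sample labelled fibroblast they did so for 7 of 12, and 3 of its 10 cells had 3 or more. The EB samples differ in line and in number of cells, and the difference between them was not tested with 1 sample each.

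**Figure D3:**
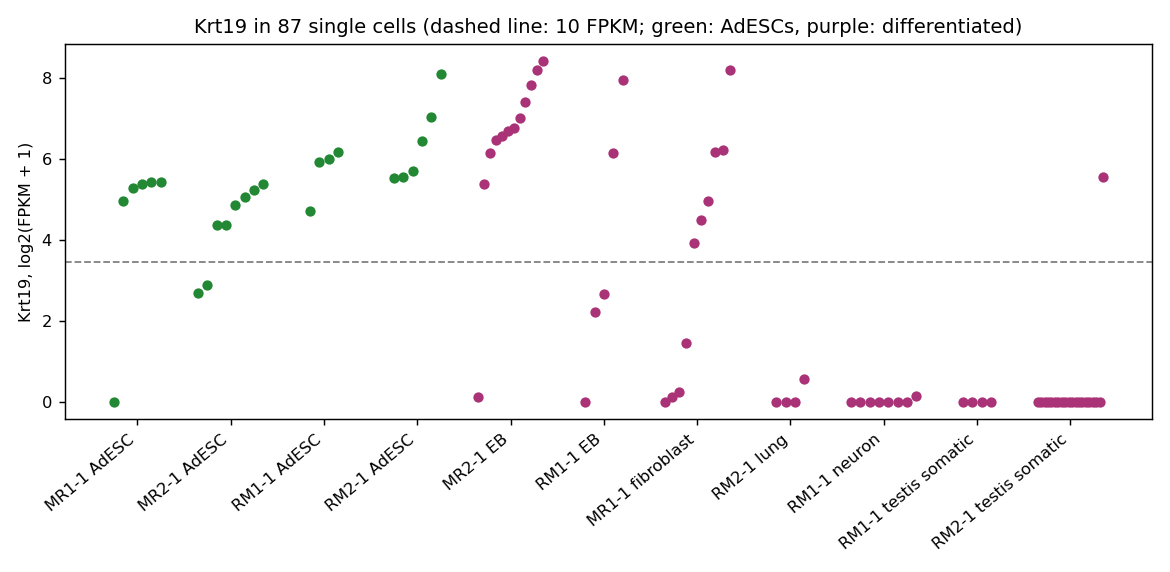
Krt19 in each of the 87 single cells as log2(FPKM + 1), by sample, with a dashed line at 10 FPKM. Nearly all AdESCs and MR2-1 EB cells are above the line (21 of 24 and 11 of 12), the fibroblast and RM1-1 EB samples are split, and 1 of 20 RM2-1 testis cells is above it.

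Against AdESC samples, 0 of 5 keratins tested were called in the EB samples, where 6.64% of all genes tested were. Krt19 differed there by 1.03 ± 0.66 on the log2 scale (n = 2 and 4; limma adjusted p = 0.377). The testis samples, unlike in smooth muscle markers as given above, entered the fit as the same group. In them 1 of 5 keratins was called, Krt19, beside 12.3% of all genes tested. Its sample means were 0 (RM1-1) and 2.28 FPKM (RM2-1) against 23.6 to 104 FPKM in AdESCs, without overlap, a difference of -4.69 ± 0.66 on the log2 scale (limma adjusted p = 0.001). The call held in each of the 14 alternatives run, with limma adjusted p from 0.00159 to 0.0237. EB and testis samples were then compared directly, in a comparison chosen after their values were seen, and differed by 5.72 ± 0.76 for Krt19 (limma adjusted p = 0.0144), 1 of 10 genes called there among 8218 tested (0.122%). The 1 positive testis cell had Krt19 at 45.5 FPKM with Epcam at 0, Vim at 1142 FPKM and Col1a1 at 247 FPKM. It also had Jup at 42.9 FPKM, Perp at 20.9 FPKM and Dsc2 at 3.72 FPKM. The mesothelial marker Msln was 104 FPKM, and each of these values was the highest of the 20 cells. Other anchorage genes were not highest there. Pkp1 was 8.52 FPKM and Itga6 0.356 FPKM, with 36.7 and 21.9 FPKM in other cells of the sample, and Itgb4 and Pkp3 were 0. Of the 20 cells, 0 had 3 or more mesothelial markers at 10 FPKM.

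Some other epithelial genes were lower in the differentiated samples, and most did not pass. In the differentiated samples 3 of 14 tested genes of the epithelial surface were lower than in AdESCs (Epcam, Cdh1 and Spint1) and 4 of 8 epithelial transcription factors were (Elf3, Grhl3, Ovol2 and Tfap2c), with none higher, beside 15.9% of all genes called. The median log2 differences of these lists were -0.76 and -2.03, beside 0.02 over all genes tested. Differentiated and AdESC sample means overlapped for Epcam, Cdh1, Spint1 and Ovol2, but not for Elf3, Grhl3 and Tfap2c. Epcam averaged 16.3 FPKM over the 7 differentiated samples and 91 FPKM over the 4 AdESC samples. Elf3, an epithelium-restricted factor, averaged 2.13 and 76.5 FPKM. In the testis samples Epcam, Cdh1 and Grhl3 were listed at 0, and 5 of 11 surface genes and 4 of 8 factors were lower, beside 12.3% of all genes called. None of the 8 desmosome and anchorage genes tested over all differentiated samples was called. Vim was higher, at 1116 against 7.36 FPKM (6.99 ± 0.75 on the log2 scale, limma adjusted p = 1.59e-05).

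The highest keratin levels of the series were in the sample labelled fibroblast, and most came from 1 cell. That cell had Krt17 at 3415 FPKM, Krt14 at 842 FPKM, Krt4 at 814 FPKM, Krt16 at 638 FPKM, Krt19 at 290.4 FPKM, Krt15 at 90.6 FPKM and Krt13 at 60.5 FPKM, together 6154 FPKM with the remaining members. Krt14 is the type I keratin of basal stratified epithelium, Krt15 a basal keratin, and Krt16 and Krt17 are induced in injured or rapidly dividing epidermis. The cell also held Epcam at 270.5 FPKM, Cdh1 at 70.5 FPKM, the desmosome genes Jup, Dsc2, Pkp1 and Pkp3 at 123, 127, 22.4 and 24.2 FPKM, Perp at 193 FPKM and Cldn4 at 91.4 FPKM. Of the fibroblast genes, Col1a1 was 0.131 FPKM there and Lum 0.223 FPKM, but Col3a1 40.5 FPKM and Vim 25.4 FPKM, and the mesothelial marker Msln was 87 FPKM. It supplied 99.4% of the sample's summed Krt17, 99.9% of Krt16, 99.9% of Krt4 and all of Krt13, so the sample means of these genes describe 1 cell.

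A second cell of that sample had a narrower set. Its Krt14 was 337 FPKM, Krt15 153 FPKM and Krt17 10.7 FPKM, with Krt4 at 0.0704 FPKM and Krt16 and Krt19 at 0. Here Itga6 (207 FPKM) and Itgb4 (43.1 FPKM), the chains of the hemidesmosome integrin, and Trp63 (12.9 FPKM), the master factor of stratified epithelium, were present, beside Epcam at 310 FPKM. In the first cell Itga6 was 3.63 FPKM, Itgb4 0 and Trp63 0.117 FPKM. Both cells carried Krt14 and Krt15. They differed in the integrin pair, in Trp63, in Dsc2 (127 against 1.96 FPKM) and in Krt16, Krt4, Krt13 and Krt19. Krt17 was above 10 FPKM in both, but at 3415 FPKM in the first and 10.7 FPKM in the second.

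The other 8 cells of the sample had neither pattern. Krt19 was found in 5 of them, between 14.2 and 73.4 FPKM, and Krt23 was 82.6 FPKM in 1 cell and 16.0 FPKM in another, the first with Gata4 at 185 FPKM, Gata6 at 34.8 FPKM and Pou5f1 at 71.2 FPKM. The remaining 2 cells, with Krt19 at 0.181 and 0.093 FPKM, had Vim at 454 and 1759 FPKM, Col1a1 at 58.3 and 75.6 FPKM and Lum at 156 and 916 FPKM. One of the Krt19 cells (71.2 FPKM) had Lum at 375.5 FPKM and Col1a1 at 27.5 FPKM with Epcam at 45.5 FPKM. All 9 cells other than the first held Krt4 at 0.0704 to 0.237 FPKM, and the 8 cells under 10 FPKM of Krt17 held it at 0.0858 to 7.16 FPKM. Outside this sample Krt4 was above 0 in 7 of 53 differentiated cells and Krt17 in 2 of 53. The source of these low values was not tested.

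**Figure D4:**
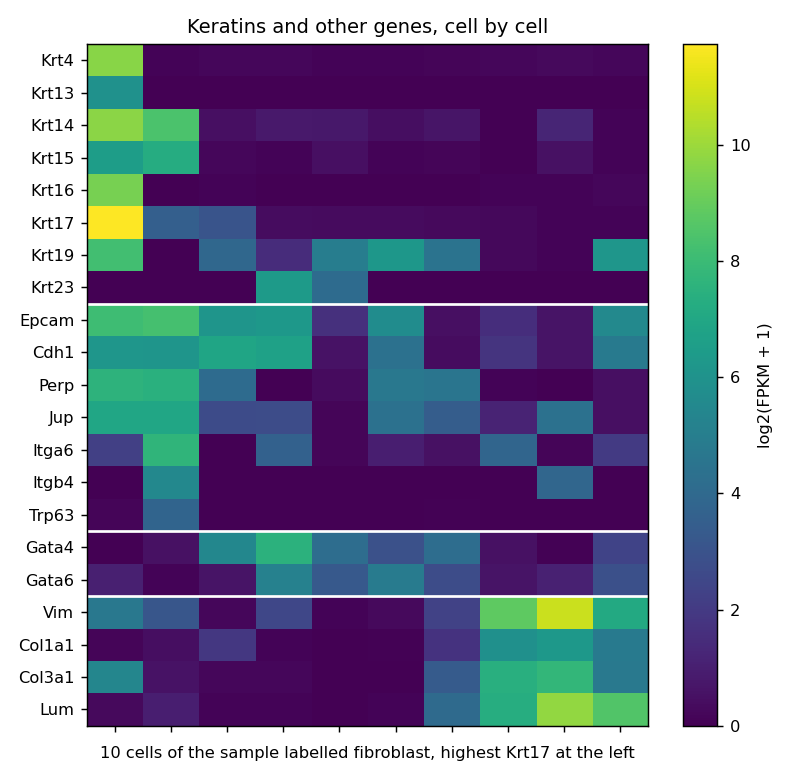
Keratins (top), epithelial genes, Gata4 and Gata6, and mesenchymal genes (bottom) as log2(FPKM + 1) in the 10 cells of the sample labelled fibroblast, with the cell highest in Krt17 at the left. The 2 cells at the left hold Krt14, Krt15 and Epcam, and Lum is high in 3 cells at the right, with 156, 916 and 375.5 FPKM.

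In the lung sample 1 of 4 cells had keratins, Krt14 at 80.6 FPKM and Krt17 at 51.2 FPKM. It also had genes of mesenchymal and contractile cells, with Vim at 1498 FPKM, Col1a1 at 325 FPKM and Tagln, an actin-binding protein of smooth muscle, at 4201 FPKM. Of the anchorage genes, Perp and Jup were at 40.1 and 34 FPKM. Pkp1 was only 0.471 FPKM and Itga6 0.0598 FPKM, and Dsc2, Pkp3 and Itgb4 were 0. Jup was higher in another cell of the sample, in which all members were at 0. In the keratin cell 3 of 4 mesothelial markers reached 10 FPKM, Msln at 18.9 FPKM among them. Epcam, Cdh1 and Trp63 were at 0 there and Krt19 at 0.493 FPKM. The remaining 3 cells had all members at 0 except Krt23 at 1.53 FPKM in 1. Among the testis cells Krt23 was above 0 in 3 of 20 RM2-1 cells, at up to 6.56 FPKM.

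The 14 type II genes in the tables, none of them Krt5, Krt7 or Krt8, were seldom found. At 10 FPKM or more, Krt4 was found in 3 differentiated cells and Krt86 in 1 AdESC. Of the 26 members that reached 10 FPKM nowhere, 9 reached 1 FPKM in a cell, with Krt34 (8.52 FPKM), Krt10 (5.80 FPKM) and Krt20 (3.70 FPKM) highest. Krt10, the suprabasal keratin of epidermis, was above 0 in 35 of 87 cells. Among all 38, 13 were at 0 in every cell and 2, Krt39 and Krt77, in every cell and bulk library.

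The genes whose log2(FPKM + 1) followed Krt19 most closely were listed by Pearson's r over points that share library preparation and, in cells, sample. Over the 8 bulk libraries they were Pdk1 (0.98), Usp31 (0.97), Ttc14 (0.97), Zbtb18 (0.96) and Zufsp (0.96) of 8794 genes compared. Over the 63 differentiated cells they were Lpar2 (0.83), Srgn (0.81), Lama1 (0.79), Apoe (0.78) and Ugt2b34 (0.78) of 8308. The lists share no gene, and no other keratin was in either.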

How the data were processed

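The authors deposited FPKM values, 1 per gene and library or cell, in 2 tables of 13926 homologues. Per the submitters' processing notes, the tools were FastQC (0.10.1), TopHat2 (2.0.10) and Cufflinks (2.1.1), and both mm10 and rn5 served as builds. How mouse and rat reads of an AdESC library were joined is not given in the sources used here, and differences between species also depend on 2 annotations. Values were used as deposited, from all columns.

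Differences were tested with limma-trend (limma version 3.58.1, R version 4.3.3) after log2 transformation with a pseudocount of 1 FPKM, which understates the change of low genes. Genes averaging under 1 FPKM in a fit's samples were left out. The Benjamini-Hochberg adjustment covered every gene of a fit, with a threshold of 0.05. Each single-cell sample entered as the mean of its cells. The fits were tested on simulated data. Depth is unknown, so precision rests on the number of samples.

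Members and lists were chosen with earlier results of these data known. Every keratin at 10 FPKM or more in a library or cell, or called, is named. Alternatives were another pseudocount, filter and scaling, samples left out, RM and MR lines apart, the cell line as a block, the mean of log values over cells, and other thresholds for a positive cell. One more, without the cell highest in Krt17, was chosen after seeing the data. Single-cell samples of 1 line are paired by that label; the correlation of their deviations from group means was -0.015 to 0.0356 over 7 same-line pairs. Sequences and positions are from GENCODE M21 (GRCm38).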

Additional observations from a re-analysis of the deposited data

Results flagged for a closer look

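Among 19 groups of 4 or 7 samples checked, 6 had 1 sample far from the rest on the log2(FPKM + 1) scale (chance flags about 1 in 20 groups). The check says little here, because a mean above 0 beside samples at 0 meets it by construction, as for Krt31, Krt86 and Krt13. Of these, 3 are means of AdESC samples: Krt13 in MR2-1 (1.65 FPKM), Krt31 in RM1-1 (6.42 FPKM) and Krt86 in MR2-1 (4.55 FPKM). For Krt31 and Krt86 each mean came from 1 cell, and for Krt13 from 2. The other 3 are means of the sample labelled fibroblast, namely Krt15 (24.5 FPKM), Krt16 (63.9 FPKM) and Krt4 (81.5 FPKM). Without the cell highest in Krt17, Krt16 there was 0.0471 FPKM, Krt4 0.132 FPKM and Krt15 17.2 FPKM.

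Krt19 was called lower than in AdESCs in testis samples and was not called in EB samples, where the difference was 1.03 (limma adjusted p = 0.377) and turned to -0.11 with the mean of log values. EB and testis samples differed by 5.72 on the log2 scale (limma adjusted p = 0.0144), in a comparison chosen after the values were seen.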

How the results depend on the processing

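Over 410 values of single keratins under alternatives, 389 kept direction and side of the threshold. Upper-quartile scaling gave 1 keratin called between AdESC and mouse ESCs and 0 to 1 when a library was left out. Between AdESC and rat ESCs a pseudocount of 0.1 FPKM gave 2, and leaving out a library 0 to 1. Leaving out a library gave 1 to 2 between rat and mouse, and leaving out a sample 0 to 2 between differentiated and AdESC samples. The cell line as a replicate block left 2 keratins called in differentiated, 0 in EB and 1 in testis samples, but over all genes it moved the counts from 546 to 249 in EB and from 1012 to 449 in testis samples. Krt35 and Krt42, the keratins called in differentiated samples without the block, passed the filter on low values only through the AdESC samples. The 7 uncalled differences of Krt17 and Krt23 that changed sign were for differentiated against AdESC samples. Krt17 became -0.88 with the pseudocount of 0.1 FPKM, -0.32 with the mean of log values over cells and -0.89 without the cell highest in Krt17, and -0.56, -0.23 and -1.0 without the RM1-1 AdESC, lung and fibroblast samples, in a range up to 0.42 when 1 sample was left out. Krt23 became -0.0055 without the fibroblast sample, in a range up to 0.66. Krt19 in EBs became -0.11 with the mean of log values. None of these was called. At a threshold of 1 FPKM, keratin-positive cells were 8 of 8 in MR2-1 AdESCs (also 8 at 5 FPKM), 5 of 5 in RM1-1 EBs, 6 of 20 in RM2-1 testis and 4 of 8 in neurons. With simple epithelial keratins only, the lung sample had 0. The depth behind the values is unknown and limits what a value of 0 shows.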
